A study of Mus musculus with 11 samples.

Results

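The epidermal growth factor family was followed through 8 genes in synovial membrane, the lining of the joint, of mice. They are the ligands Ereg, Areg, Hbegf, Btc, Tgfa and Nrg1 and the receptors Egfr and Erbb3. They were taken by symbol from a deposited table of 18804 genes, and all 8 were found there. They were selected on their read counts in these same 11 libraries, so their differences between groups are given as description, with no p-value. The number of members that pass a threshold is given once, beside the share of all genes, and nothing is read from it. All mice were DBA/1, an inbred strain in which type II collagen given with adjuvant causes collagen-induced arthritis (CIA). High-fat CIA had 3 libraries, high-fat sham 2, regular-diet CIA 3 and regular-diet sham 3, and the series asked whether obesity changes arthritis. The diet is that of the treatment labels, whereas the growth notes give a regular diet for all 11 samples. The labels give CIA in the genotype field, with no transgene or mutation named. Age, sex and length of feeding are not given in the sources used here, nor is whether replicates are separate mice. The p-values below thus rest on the spread among samples, and that spread may be technical.

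Ligands of this family are made as membrane proteins, and proteases of the ADAM type cut them free to act on neighbouring cells. They bind receptor tyrosine kinases of the ErbB group, which pair with each other and signal through Ras and ERK, PI3 kinase and STAT proteins. Ereg (epiregulin), Hbegf (heparin-binding EGF-like growth factor) and Btc (betacellulin) bind both EGFR and ErbB4, while Areg (amphiregulin) and Tgfa (transforming growth factor alpha) bind EGFR. Nrg1 (neuregulin 1) binds ErbB3 and ErbB4, and ErbB3 has little kinase activity of its own and signals through a partner such as ErbB2. In inflamed joints these ligands are known as growth signals for synovial fibroblasts.

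Ereg, Areg and Btc lie side by side. On mouse chromosome 5 (GRCm38.p6), RefSeq places Epgn at 91027517 to 91035212, Ereg at 91074617 to 91093649, Areg at 91139599 to 91148432 and Btc at 91357261 to 91402994. Epgn encodes epigen, another ligand of EGFR, and RefSeq lists no other protein-coding gene between Epgn and Btc. The antisense gene Gm19610 overlaps Ereg in GENCODE. Opposite-strand genes also overlap Tgfa, Nrg1 and Egfr. Whether the libraries mark strand is not stated, so reads of such pairs cannot be told apart.

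No promoter of Ereg was in the reference used here. The promoters of Areg and Btc are shown because these neighbours stood on opposite sides of sham in high-fat CIA, Areg on only 20 counts against 1. Each is the 250 bases before the gene's start in RefSeq (GRCm38.p6), 5′ to 3′ on the gene's strand, at chr5:91139349-91139598 (plus strand) for Areg and chr5:91402995-91403244 (minus strand) for Btc. Capitals mark a cAMP response element (TGACGTCA) and a TATA box (TATAAA).
Areg: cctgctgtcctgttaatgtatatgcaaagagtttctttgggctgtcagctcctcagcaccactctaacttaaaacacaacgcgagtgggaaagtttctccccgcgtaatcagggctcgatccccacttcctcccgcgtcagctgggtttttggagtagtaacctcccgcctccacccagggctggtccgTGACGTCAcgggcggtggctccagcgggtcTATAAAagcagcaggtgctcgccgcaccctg
Btc: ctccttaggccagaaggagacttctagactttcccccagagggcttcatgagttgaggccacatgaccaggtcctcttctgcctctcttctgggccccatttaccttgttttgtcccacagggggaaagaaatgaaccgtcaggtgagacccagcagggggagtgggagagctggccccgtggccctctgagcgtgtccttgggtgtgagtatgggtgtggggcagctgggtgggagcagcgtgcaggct
Of 32851 promoters of that length searched on both strands, 1.55% held TGACGTCA and 12.4% held TATAAA. The AP-1 motif TGANTCA was in 6.75% and the NF-kappa-B motif in 3.90% of all promoters. Neither was found in these windows, and Btc held none of the 4 motifs. No pair of motifs overlapped in Areg, where TGACGTCA stood at -61 to -54 and TATAAA at -31 to -26 from the start. A match is a description of letters only.

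Levels of different genes are compared in FPKM, which divides by gene length and depth. Hbegf was the most abundant member, with a mean of 99.96 ± 57.5 FPKM (SD, n = 11) and a range of 26.7 to 214 FPKM. Egfr followed at 20.7 ± 7.74 FPKM, and its range of 12.7 to 40.1 FPKM overlapped that of Hbegf, although Hbegf was higher than Egfr in each of the 11 libraries. Every library had more Egfr than Btc, which averaged 3.35 ± 1.76 FPKM and spanned 0.58 to 5.28 FPKM.

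Neighbours among the lower members did not differ beyond their spread. Mean levels were 1.54 ± 0.429 FPKM for Erbb3, 1.28 ± 1.4 for Ereg, 1.13 ± 0.512 for Tgfa, 0.315 ± 0.376 for Nrg1 and 0.249 ± 0.194 for Areg (SD, n = 11). Their ranges overlapped from each to the next, while Erbb3, at 0.74 to 2.02 FPKM, was above Areg, at 0 to 0.52 FPKM, in every library. Among the rest of the family, Nrg4, an ErbB4 ligand known from fat tissue, averaged 43.5 ± 30.4 FPKM over all libraries. It was below Egfr in all 3 high-fat CIA libraries, at 3.99 to 11.1 FPKM, and above Egfr in the other 8. Erbb2, the partner receptor that binds no ligand, averaged 5.54 ± 1.02 FPKM, and Nrg3 had no count in any library.

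**Figure D1:**
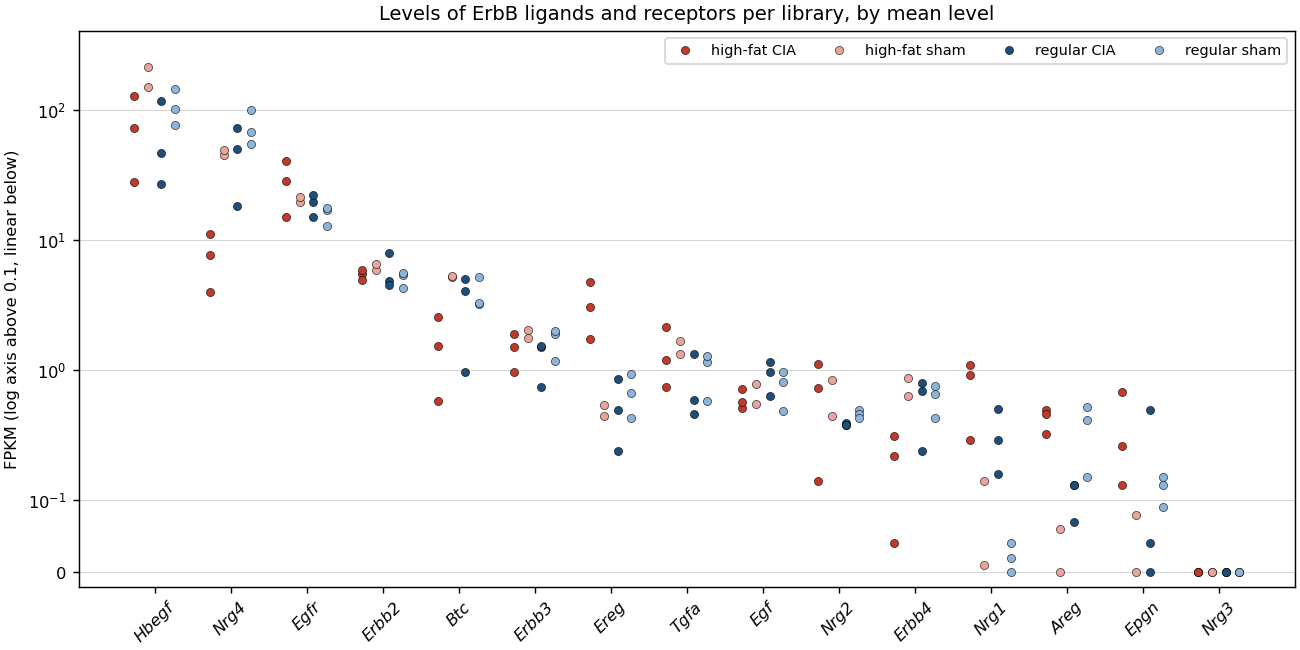
FPKM of the 8 members and the other ErbB ligands and receptors in each of the 11 libraries, ordered by mean, on an axis that is logarithmic above 0.1 and linear below. Hbegf leads at 26.7 to 214 FPKM, and Nrg3 is at 0 throughout.

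Hbegf took the largest share of ligand RNA on this scale, except in replicate a of both regular-diet groups, where Nrg4 exceeded it. Its share of the summed FPKM of 11 ligands (the 6 members with Egf, Epgn, Nrg2, Nrg3 and Nrg4) was 68.2, 82.4 and 85.8% in high-fat CIA, against 73.5 and 78.8% in high-fat sham. In regular-diet CIA it was 45.3, 53.6 and 58.9%, against 41.8, 69.2 and 57.9% in regular-diet sham. The share of Hbegf thus overlapped between CIA and sham on each diet. Nrg4 took up 9.80, 8.71 and 7.46% in high-fat CIA, against 22.2 and 18.1% in high-fat sham. It took 48.4, 36.6 and 36.8% in regular-diet CIA, against 55, 26.5 and 38% in regular-diet sham. Ereg held 11.6, 1.99 and 2.07% of the sum in high-fat CIA, against 0.218 and 0.199% in high-fat sham. On the regular diet it held 0.476, 1.71 and 0.122% in CIA and 0.238, 0.450 and 0.376% in sham. The share of Ereg in high-fat CIA was thus above that in every other library.

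Levels of 1 gene across libraries are given as CPM, counts scaled to the library total after TMM. Total counts were 13677638 to 17631167 per library. Regular-diet CIA replicate b stood apart from a and c, since its counts gave a chi-square of 218.9 and 265.8 per degree of freedom against them, and a against c gave 28.96. High-fat CIA replicate a likewise stood apart from b and c, at 160.6 and 153.5, where b against c gave 66.27. Markers of synovial fibroblasts, such as Prg4 and Col1a1, were abundant throughout, with a summed level of their 10 genes of 14137 to 42532 CPM. Of the members 7 passed the filter on low counts and entered the fit across 14892 genes, and Areg did not. Fold changes below are log2 values from edgeR ± SE.

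Ereg was high in CIA mice on the high-fat diet and low in every other group. Its level was 18.4, 6.45 and 11.5 CPM in the high-fat CIA libraries (a, b, c), against 1.60 and 2.10 CPM in high-fat sham. Regular-diet CIA had 1.96, 3.08 and 0.964 CPM, against 1.83, 3.68 and 2.62 CPM in regular-diet sham. All 3 high-fat CIA libraries thus lay above all 8 others, and the other groups overlapped.

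The group means of Ereg were 12.1 ± 6.0 CPM in high-fat CIA and 1.85 ± 0.353 CPM in high-fat sham (SD, n = 3 and 2). They were 2.0 ± 1.06 CPM in regular-diet CIA and 2.71 ± 0.929 CPM in regular-diet sham (SD, n = 3 each). CIA over sham was 2.70 ± 0.61 on the high-fat diet and -0.44 ± 0.50 on the regular diet. High-fat over regular diet was 2.59 ± 0.52 in CIA mice and -0.55 ± 0.57 in sham mice. The difference between both CIA effects was 3.15 ± 0.77. Without high-fat CIA replicate a, which had the highest Ereg, CIA over sham was 2.27 on the high-fat diet and high-fat over regular diet in CIA mice was 2.16. In the authors' deposited table the log2 fold change of Ereg was 2.72 for CIA over sham on the high-fat diet and -0.45 on the regular diet.

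**Figure D2:**
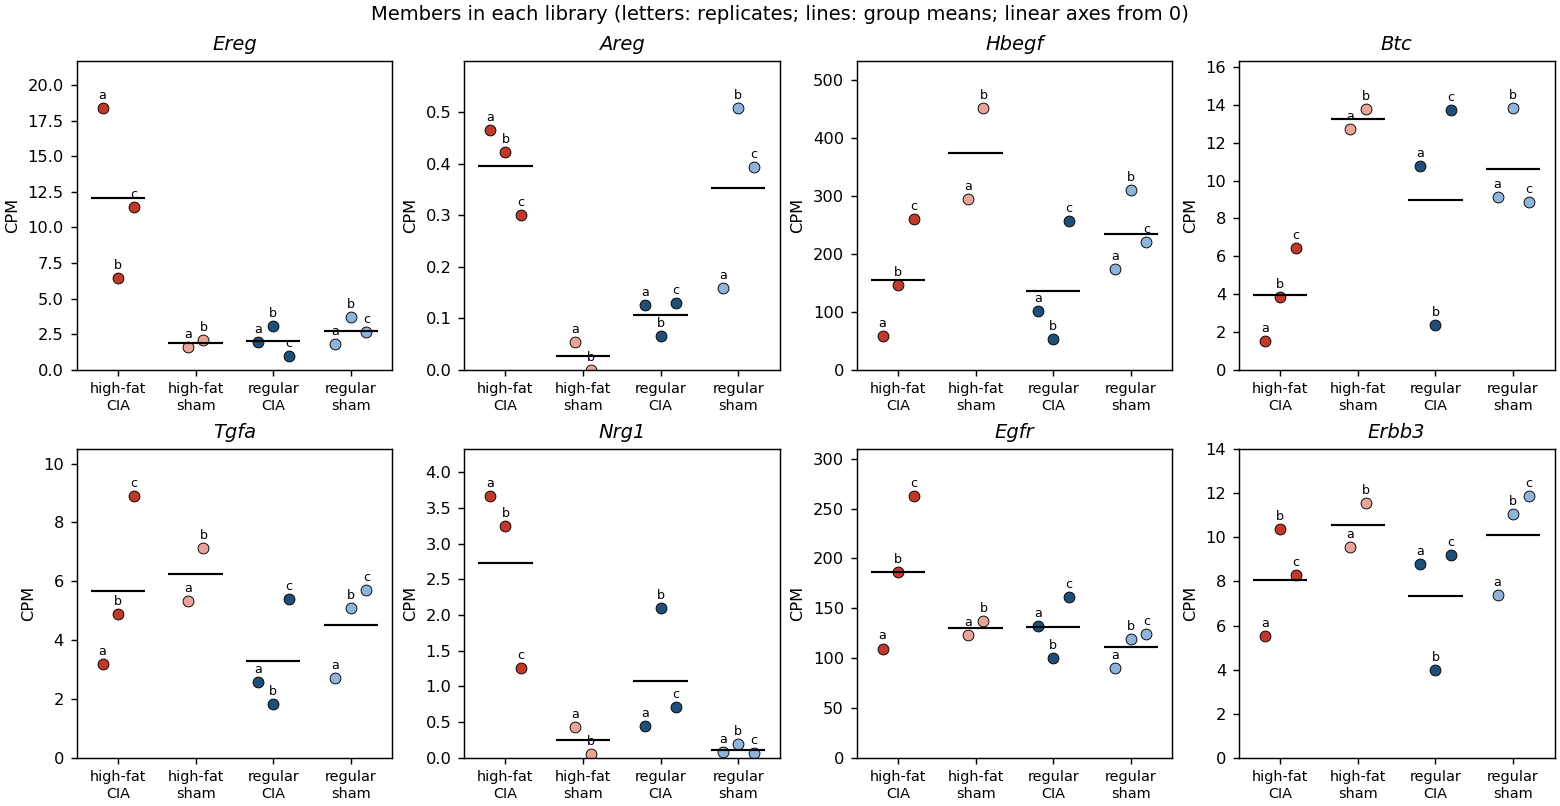
CPM of the 8 members in each library on linear axes from 0, with points labelled by replicate letter and lines at group means. Ereg is highest in the 3 high-fat CIA libraries, at 6.45 to 18.4 CPM, and Btc is lower in them than in both high-fat sham libraries.

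Markers of macrophages and monocytes, cells known to make epiregulin, had their highest sums in high-fat CIA, as Ereg did, but differed from it in other comparisons. The summed level of 10 such genes was 3248 to 4588 CPM in high-fat CIA and 2037 to 2469 CPM in high-fat sham. On the regular diet it was 1312 to 2123 CPM in CIA and 1151 to 1480 CPM in sham. Of the 10, 6 were higher and 4 lower in high-fat CIA than in high-fat sham, and 1 passed the test. On the regular diet 9 were higher in CIA than in sham, where Ereg had -0.44. In sham mice all 10 were higher on the high-fat diet, where Ereg had -0.55, and 0 passed in either comparison. Synovial fibroblast markers summed to 32198 to 42532 CPM in high-fat CIA and 26271 to 32711 CPM in high-fat sham, and to 15019 to 26426 CPM in regular-diet CIA and 14137 to 16008 CPM in regular-diet sham. Of these 10 fibroblast markers, 7 were higher and 3 lower in high-fat CIA than in high-fat sham, and 1 passed the test. The part of either cell type in the level of Ereg was not tested. In bulk tissue, fewer cells of a type and less RNA per cell cannot be told apart.

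Epithelium such as skin also makes these ligands. Of the keratins among its markers, Krt15 had no count in any library, and Krt14 had 1 count in 1 library and 0 in the others. They do not stand for the list, since each library had only 2 to 4 of the 11 markers found at 0 counts. The summed level of 11 of the 12 epithelial markers was 22.0 to 39.5 CPM in high-fat CIA and 28.4 to 29.2 CPM in high-fat sham. It was 21.3 to 31.7 CPM in regular-diet CIA and 26.5 to 48.4 CPM in regular-diet sham. Of 8 tested, 3 were higher in high-fat CIA than in high-fat sham and 1 passed the test. Cdh1, which encodes E-cadherin and was named after its values were seen, had 10.4, 7.23 and 2.88 CPM in high-fat CIA, against 0.481 and 0.117 CPM in high-fat sham. It had 0.379, 3.73 and 0.771 CPM in regular-diet CIA, against 0.477, 0.825 and 0.787 CPM in regular-diet sham. Its high-fat CIA libraries were apart from high-fat sham, as were those of 55.2% of all genes. Of the 8 tested markers, 5 were lower in high-fat CIA. The part of epithelium in Ereg was not tested.

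The genes whose pattern was most like that of Ereg over the 11 libraries were Arf6, Tnfaip6, Plod1, Sparc and Gja1. Pearson's r of log2 CPM was 0.933, 0.931, 0.927, 0.926 and 0.921 for them, the highest of 12941 genes compared. The libraries share their groups, so these values describe a common pattern of groups. Tnfaip6, a secreted hyaluronan-binding protein known from inflamed joints, had 154.7, 23.6 and 85.6 CPM in high-fat CIA, against 5.29 and 5.90 CPM in high-fat sham. Its level was 6.19, 34.0 and 2.57 CPM in regular-diet CIA and 4.69, 5.71 and 7.08 CPM in regular-diet sham. Unlike for Ereg, 1 regular-diet CIA library (b) thus reached the high-fat CIA range.

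Nrg1 (chromosome 8, 31807452 to 32891609) was higher in CIA than in sham on both diets, at low levels. It had 3.67, 3.26 and 1.26 CPM in high-fat CIA, from 63, 54 and 21 counts, against 0.427 and 0.0584 CPM in high-fat sham, from 8 and 1 counts. Regular-diet CIA had 0.442, 2.09 and 0.707 CPM, from 7, 32 and 11 counts, against 0.0795, 0.190 and 0.0656 CPM in regular-diet sham, from 1, 3 and 1 counts. No CIA library overlapped the sham libraries of its diet, as for 55.2% of all genes on the high-fat and 25.2% on the regular diet. Replicate b was the highest of the regular-diet CIA libraries.

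CIA over sham for Nrg1 was 3.43 ± 0.96 on the high-fat diet, 3.16 ± 0.91 on the regular diet and 3.30 ± 0.66 as the mean of both. The difference between both CIA effects was 0.27 ± 1.61. High-fat over regular diet was 1.33 ± 0.73 in CIA mice and 1.06 ± 1.06 in sham mice, with overlapping libraries in both. Without high-fat sham replicate a the high-fat value of CIA over sham was 5.37, so its size rests on a few counts.

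Btc was lower in CIA than in sham on the high-fat diet. It had 1.51, 3.86 and 6.43 CPM in high-fat CIA, against 12.7 and 13.8 CPM in high-fat sham. Regular-diet CIA had 10.8, 2.36 and 13.8 CPM, against 9.15, 13.8 and 8.85 CPM in regular-diet sham. The high-fat groups were apart, as were those of 55.2% of all genes, while on the regular diet replicate b alone was below sham. CIA over sham was -1.75 ± 0.67 on the high-fat diet and -0.24 ± 0.61 on the regular diet, and the regular-diet value was 0.21 without regular-diet CIA replicate b. Between diets, high-fat over regular was -1.19 ± 0.62 in CIA mice and 0.32 ± 0.67 in sham mice, with overlapping libraries in both.

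Hbegf (chromosome 18, 36504927 to 36515805), the most abundant ligand, was also lower in high-fat CIA than in high-fat sham. It had 58.8, 145.5 and 260 CPM in high-fat CIA, against 296 and 452 CPM in high-fat sham. Regular-diet CIA had 100.6, 52.7 and 257 CPM, against 175, 310.2 and 221 CPM in regular-diet sham. The libraries were apart on the high-fat diet, as were those of 55.2% of all genes, with high-fat CIA replicate c close to sham. They overlapped on the regular diet. CIA over sham was -1.27 ± 0.67 on the high-fat diet and -0.78 ± 0.61 on the regular diet. Leaving out high-fat CIA replicate c moved the first to -1.87 and leaving out regular-diet CIA replicate c moved the second to -1.66. Without high-fat CIA replicate a, the lowest of its group for both genes, the high-fat value was -0.88 for Hbegf and -1.36 for Btc. Between diets, high-fat over regular was 0.18 ± 0.61 in CIA mice and 0.67 ± 0.67 in sham mice.

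Tgfa (chromosome 6, 86195038 to 86275744) overlapped between CIA and sham on both diets. It had 3.20, 4.88 and 8.89 CPM in high-fat CIA, against 5.34 and 7.12 CPM in high-fat sham. Regular-diet CIA had 2.59, 1.83 and 5.40 CPM, against 2.70, 5.08 and 5.70 CPM in regular-diet sham. CIA over sham was -0.14 ± 0.55 on the high-fat diet and -0.46 ± 0.50 on the regular diet. Between diets, high-fat over regular was 0.79 ± 0.50 in CIA mice and 0.47 ± 0.55 in sham mice.

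Areg had few counts in every group. High-fat CIA had 8, 7 and 5 counts, against 1 and 0 counts in high-fat sham. Regular-diet CIA had 2, 1 and 2 counts, against 2, 8 and 6 counts in regular-diet sham. A library with 0 counts allows a level of up to 3 counts, or 0.175 CPM for high-fat sham replicate b. The ratio of pooled counts, CIA over sham, was 14.2 on the high-fat diet (95% exact interval 2.27 to 589) and 0.292 on the regular diet (0.0836 to 0.834). High-fat over regular diet gave 3.70 (1.35 to 12.6) in CIA mice and 0.0760 (0.00181 to 0.489) in sham mice. In CPM the groups did not overlap in any of these 4 comparisons, as for 22.2% to 55.2% of all genes tested. On the regular diet both groups had libraries of 2 counts. Only scaling set those apart, at 0.126 and 0.129 CPM in CIA (a, c) and 0.159 CPM in sham (a). The exact intervals cover counting error only and treat reads as independent, so they say nothing of the spread between libraries.

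Mast cells and lymphocytes are known sources of amphiregulin. The summed level of 8 mast cell markers was 93.0 to 306 CPM in high-fat CIA, against 51.9 to 68.2 CPM in high-fat sham, and 55.7 to 119 CPM in regular-diet CIA, against 56.2 to 71.5 CPM in regular-diet sham. Innate lymphoid and T cell markers, 7 of 8 listed, summed to 29.8 to 131 CPM in high-fat CIA, against 10.2 to 19.8 CPM in high-fat sham, and to 10.1 to 33.3 CPM in regular-diet CIA, against 7.79 to 11.7 CPM in regular-diet sham. Of 7 mast cell markers tested, 4 were higher and 3 lower in high-fat CIA than in high-fat sham, and 1 passed the test. On the regular diet 3 were higher and 4 lower in CIA, and 0 passed. Of 7 lymphoid markers tested, 6 were higher and 1 lower in high-fat CIA than in high-fat sham, and 3 passed. On the regular diet all 7 were higher in CIA, and 0 passed. The part of these cells in the counts of Areg was not tested.

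Egfr (chromosome 11, 16752203 to 16913907), the receptor shared by most of these ligands, was expressed in every library. It had 109.6, 187 and 262 CPM in high-fat CIA, against 123 and 138 CPM in high-fat sham. Regular-diet CIA had 133, 99.9 and 162 CPM, against 90.4, 119 and 124 CPM in regular-diet sham. CIA and sham overlapped on both diets, with high-fat CIA replicates b and c above every other library. CIA over sham was 0.52 ± 0.34 on the high-fat diet and 0.24 ± 0.30 on the regular diet. Between diets, high-fat over regular was 0.50 ± 0.30 in CIA mice and 0.23 ± 0.34 in sham mice.

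Erbb3 (chromosome 10, 128567523 to 128589635), the neuregulin receptor, overlapped between CIA and sham on each diet. It had 5.53, 10.4 and 8.29 CPM in high-fat CIA, against 9.56 and 11.6 CPM in high-fat sham. Regular-diet CIA had 8.78, 3.99 and 9.19 CPM, against 7.40, 11 and 11.9 CPM in regular-diet sham. CIA over sham was -0.39 ± 0.40 on the high-fat diet and -0.47 ± 0.36 on the regular diet. High-fat over regular diet was 0.14 ± 0.36 in CIA mice and 0.06 ± 0.40 in sham mice.

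Schwann cells, the glia of nerves, depend on ErbB3. Of 9 tested markers of theirs, 8 were lower in high-fat CIA than in high-fat sham. In edgeR 0 of them passed after adjustment and 3 at an unadjusted p under 0.05. On the regular diet 8 of the 9 were also lower in CIA than in sham, and 0 passed either way. The summed level of the 9 was 249 to 402 CPM in high-fat CIA and 613 to 643 CPM in high-fat sham. It was 279 to 411 CPM in regular-diet CIA and 426 to 527 CPM in regular-diet sham. Their part in the level of Erbb3 was not tested. The genes most like Erbb3 in pattern were Saraf, Nipal3, Tcn2, Cep112 and Hhip, with Pearson's r of 0.929, 0.928, 0.924, 0.924 and 0.922 over the 11 libraries.

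**Figure D3:**
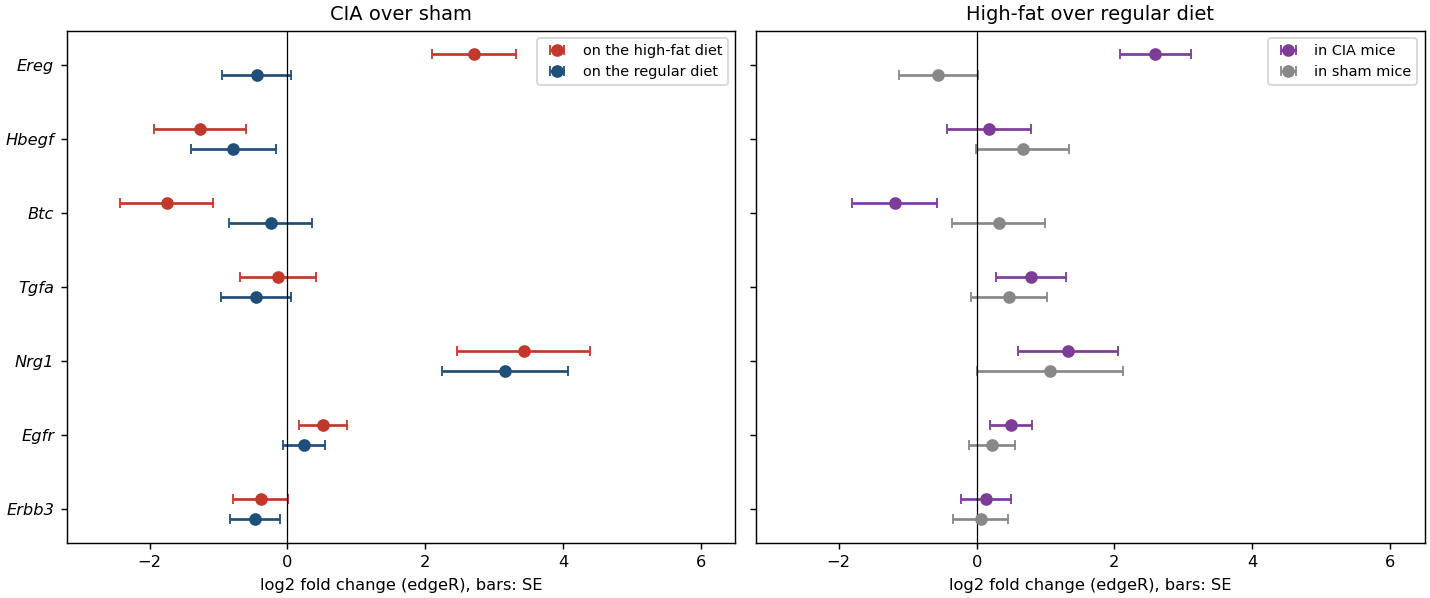
Log2 fold change ± SE from edgeR for the 7 members that entered the fit, CIA over sham on each diet (left) and high-fat over regular diet in CIA and in sham mice (right). Ereg stands at 2.70 and Nrg1 at 3.43 for CIA over sham on the high-fat diet, and Nrg1 alone is also high on the regular diet, at 3.16.

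At a Benjamini-Hochberg adjusted p under 0.05 in edgeR, 2 of the 7 members (Ereg and Nrg1) were called for CIA over sham on the high-fat diet, where 10.8% of all genes were called. For high-fat over regular diet in CIA mice 1 of 7 (Ereg) was called, against 3.95% of all genes. For the mean CIA effect over both diets it was 1 of 7 (Nrg1), against 23.8% of all genes. On the regular diet 0 of 7 were called in edgeR, against 0.0269% of all genes. DESeq2 called Nrg1 there, 1 of the 837 genes that it called. In edgeR 0 of 14892 genes were called for high-fat over regular diet in sham or for the difference between the CIA effects. At an unadjusted p under 0.05 those last comparisons had 1165 and 635 genes, and DESeq2 called 121 and 21, of which Ereg was 1 of the 21. Groups did not overlap for 4 of the 7 members on the high-fat diet, CIA against sham, and for 55.2% of all genes. On the regular diet this was 1 of 7, against 25.2% of all genes. For high-fat over regular diet it was 1 of 7 in CIA mice, against 22.2% of all genes, and 0 of 7 in sham mice, against 41.8%. The members were selected on these same values.

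The rest of the pathway was described through 81 further genes in 6 lists by role, of which 79 were tested over all genes. The lists were chosen with earlier results of these data known, so their shares of called genes may in part reflect that choice. For CIA over sham on the high-fat diet, 12 of them rose and 1 fell, 16.5% of the 79 against 10.8% of all genes. On the regular diet 0 passed in edgeR (19 at an unadjusted p under 0.05, 6 in DESeq2), against 0.0269% of all genes in edgeR. The median log2 fold change was 0.36 on the high-fat diet against 0.02 over all genes, and 0.20 on the regular diet against 0.06 over all genes. No high-fat call was left without high-fat sham replicate a or without b. The count was 2 without high-fat CIA replicate b and 8 without a. It was 31 and 7 without regular-diet CIA replicates b and a, and 6 and 4 without regular-diet sham replicates c and b. The sign of these 13 changes was the same in all 16 alternatives.

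The list for ligand shedding held 11 genes, 7 ADAM proteases, the rhomboid-like Rhbdf1 and Rhbdf2 with their partner Frmd8, and the protease inhibitor Timp3. In high-fat CIA 5 of the 11 rose, all of them ADAM proteases, and 0 fell, against 10.8% of all genes called in either direction. Adam17, the main sheddase of Ereg, Areg, Hbegf and Tgfa, had 138, 159 and 132 CPM in high-fat CIA, against 65.5 and 58.0 CPM in high-fat sham. The fold change was 1.21 ± 0.17 (adjusted p = 0.0155 in edgeR). On the regular diet Adam17 had 84.0, 73.8 and 66.2 CPM in CIA, against 46.9, 52.3 and 50.2 CPM in sham, and did not pass over all genes although the libraries were apart. High-fat over regular diet in CIA mice was 0.94 ± 0.14 (adjusted p = 0.0330 in edgeR), 1 of 5 such calls among the 79 genes. These calls were 6.33% of the 79, against 3.95% of all genes. Leaving out any single library left 0 of these calls, except that without regular-diet CIA replicate b 29 genes passed.

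Adam12 (2.79 ± 0.63, adjusted p = 0.0297 in edgeR) and Adam19 (1.46 ± 0.31, adjusted p = 0.0250), which can also cut ligands, rose in high-fat CIA. Adam10, a sheddase of Btc that was named after its values were seen, rose by 0.73 ± 0.20 (adjusted p = 0.0436 in edgeR). Adam8, a protease known from leukocytes, rose as well (4.04 ± 1.14, adjusted p = 0.0489 in edgeR). It had 135, 230 and 43.1 CPM in high-fat CIA, against 12 and 4.5 CPM in high-fat sham. Neutrophil markers summed to 931 to 5653 CPM in high-fat CIA and 25.6 to 1190 CPM in high-fat sham. On the regular diet they summed to 288 to 1165 CPM in CIA and 46.2 to 178 CPM in sham. All 8 were higher in CIA on each diet, with 3 of 8 at an unadjusted p under 0.05 in edgeR on each and 0 after adjustment. Their part in Adam8 was not tested.

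Nrg4 alone of the 6 other ErbB ligands and receptors tested was called for CIA over sham on the high-fat diet, 16.7% of them against 10.8% of all genes. It had 6.17, 11.1 and 16.9 CPM in high-fat CIA, against 63.5 and 77.3 CPM in high-fat sham, and fell by 2.63 ± 0.57 on the log2 scale (adjusted p = 0.0263 in edgeR). Regular-diet CIA had 77.7, 26.9 and 116 CPM, against 172, 88.2 and 105 CPM in regular-diet sham, where the fold change was -0.73 ± 0.50 (adjusted p = 0.472 in edgeR). Between diets in CIA mice Nrg4 fell by 2.69 ± 0.54 (adjusted p = 0.0349 in edgeR), with all 3 high-fat libraries below all 3 regular-diet ones. The difference between its CIA effects on both diets was -1.90 ± 0.75 and did not pass (adjusted p = 0.989 in edgeR).

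Nrg4 moved with markers of fat cells. The summed level of 8 adipocyte markers was 1523 to 6035 CPM in high-fat CIA and 13862 to 16972 CPM in high-fat sham. All 8 were lower in high-fat CIA than in high-fat sham and 5 passed the test. The sum was 7160 to 22283 CPM in regular-diet CIA and 26638 to 38847 CPM in regular-diet sham. Their part in the fall of Nrg4, and in the lower Btc of high-fat CIA, was not tested. The receptor Erbb4, named after its values were seen, had 0.524, 2.35 and 3.48 CPM in high-fat CIA, against 6.62 and 9.87 CPM in high-fat sham (-1.96 ± 0.70, adjusted p = 0.0924 in edgeR).

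Of 8 co-receptors and membrane partners, 1 rose in high-fat CIA, 12.5% of them against 10.8% of all genes. The called gene was Cd44, a hyaluronan receptor that can carry Hbegf, with 514, 473 and 344 CPM in high-fat CIA against 163 and 173 CPM in high-fat sham (1.4 ± 0.30, adjusted p = 0.0262 in edgeR). Regular-diet CIA had 147, 139.6 and 139 CPM, against 60.7, 124 and 93.4 CPM in regular-diet sham. Between diets in CIA mice Cd44 rose by 1.64 ± 0.26 (adjusted p = 0.0330 in edgeR).

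Among 13 tested genes that restrain or degrade the receptors, 3 rose in high-fat CIA and 0 fell, 23.1% of them against 10.8% of all genes. Cbl, the ubiquitin ligase that sends EGFR to degradation, rose by 1.33 ± 0.26 (adjusted p = 0.0224 in edgeR). The phosphatase genes Ptpn1 (1.33 ± 0.34, adjusted p = 0.0388) and Ptprj (1.03 ± 0.27, adjusted p = 0.0426) rose with it. Lrig1, a membrane inhibitor of ErbB receptors, had 27.6, 33.3 and 36.2 CPM in high-fat CIA, against 95, 39.6 and 102 CPM in regular-diet CIA. It fell between diets in CIA mice by 1.29 ± 0.30 (adjusted p = 0.0455 in edgeR), and with 48.2 and 52.7 CPM in high-fat sham against 87.2, 87.8 and 94.9 CPM in regular-diet sham it did not pass in sham mice (adjusted p = 0.574).

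**Figure D4:**
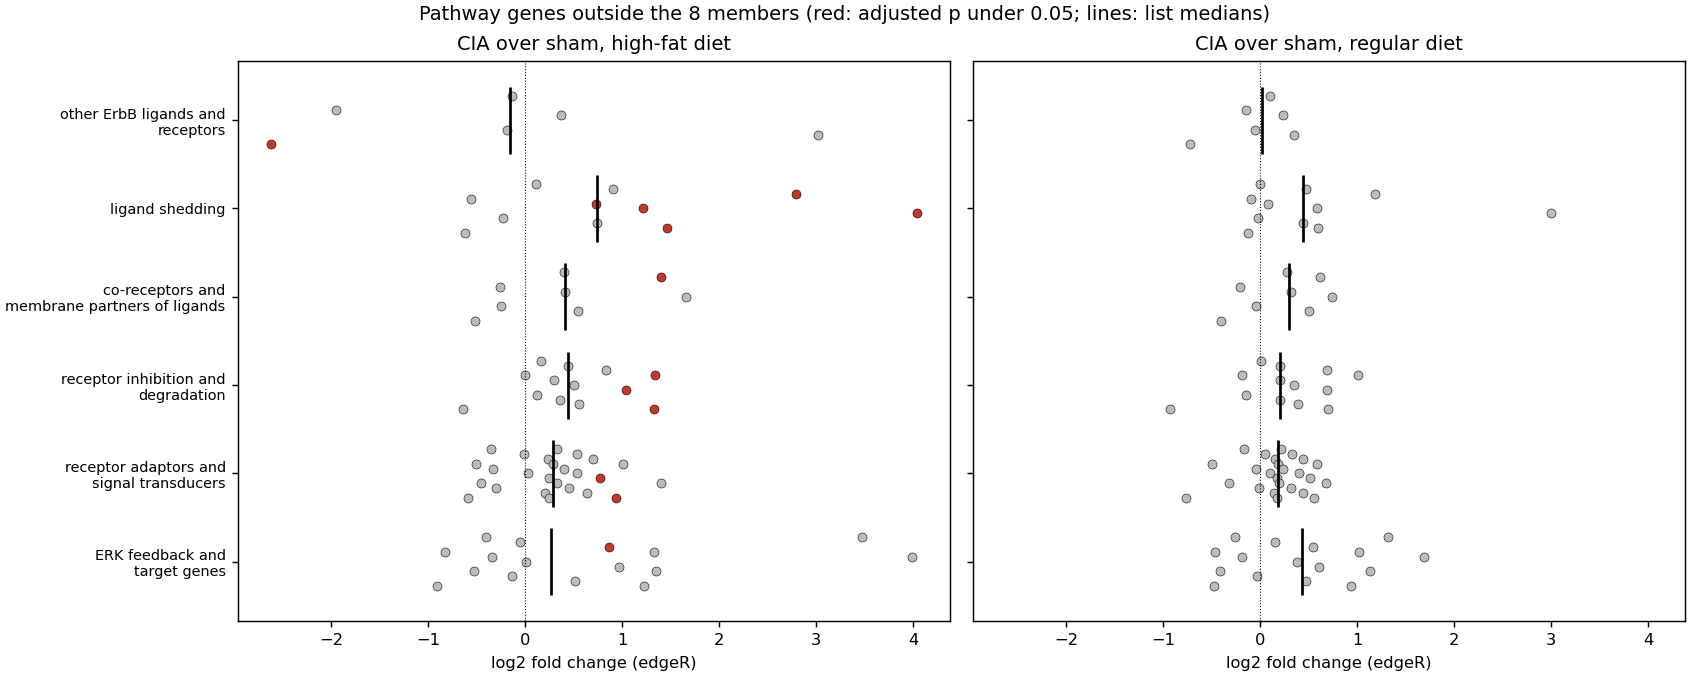
Log2 fold change of CIA over sham for the 79 tested pathway genes outside the 8 members, by list, on the high-fat diet (left) and the regular diet (right), with called genes in red and a line at each list's median. The 13 called genes are all on the high-fat diet, 5 of them among the shedding proteases.

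Downstream, the shares called on the high-fat diet were 8% of adaptors and transducers and 6.25% of ERK feedback and target genes, against 10.8% of all genes. On that diet 2 of 25 adaptors and transducers rose, the kinase gene Braf (0.93 ± 0.24, adjusted p = 0.0380 in edgeR) and the transcription factor gene Stat3 (0.77 ± 0.19, adjusted p = 0.0339). Of 16 feedback and target genes of ERK, 1 rose, Spred1, which restrains Ras signalling (0.86 ± 0.24, adjusted p = 0.0463 in edgeR).

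Averaged over both diets, CIA over sham gave 23 rises and 4 falls among the 79 genes, 34.2% of them, against 23.8% of all genes. The count was 9 without high-fat sham replicate a, 0 without b, and 15 without regular-diet sham replicate a, 17 without b and 18 without c. The shedding list gave 6 of the rises, and Adam17 had the smallest p among them (0.90 ± 0.11, adjusted p = 0.00523 in edgeR). Of 25 adaptors and transducers 36% were called in that mean. Sdc1, a syndecan that binds heparin-binding ligands, rose by 1.2 ± 0.35 (adjusted p = 0.0341 in edgeR). Lrrk1, a kinase that acts on EGFR traffic, rose by 0.92 ± 0.18 (adjusted p = 0.00951 in edgeR). The GTPase gene Hras fell by 0.67 ± 0.16 (adjusted p = 0.0174 in edgeR) while the adaptor gene Gab2 rose by 0.76 ± 0.19 (adjusted p = 0.0209). Dusp5, a phosphatase that ERK induces, rose in that mean by 2.2 ± 0.63 (adjusted p = 0.0327 in edgeR), and Spry4, a feedback inhibitor, fell by 0.69 ± 0.20 (adjusted p = 0.0344). For the difference between the CIA effects of the diets 0 of 79 passed in edgeR (5 at an unadjusted p under 0.05) and 0 in DESeq2.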

How the data were processed

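Synovial RNA was sequenced in 11 libraries, and groups follow the sample titles and treatment labels. Per the file headers, the authors deposited expected counts per gene, FPKM, TPM (TPM was not used for results) and log2 fold changes with DESeq2 q-values of their own comparisons. RSEM 1.2.12, DESeq2 1.4.5, Bowtie2 2.2.5 and the build GRCm38.p6 are named, without roles, in the submitters' processing notes. Positions and promoters are RefSeq's for GRCm38.p6, matched by gene ID, and overlaps are from GENCODE; 1 line of the table was empty.

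Expected counts were rounded, filtered with filterByExpr, scaled with TMM and fitted with edgeR 4.0.16 (R 4.3.3, glmQLFit, robust), with 1 mean per group over all 11 libraries. P-values are two-sided and Benjamini-Hochberg adjusted over 14892 genes. The SE was derived from each fold change and its F statistic (size over root F), and a prior count of 2 entered log2 CPM. The fit was tested on simulated counts. Members and lists were chosen with earlier results of these data known. Named pathway genes are called ones, up to 4 per list and comparison by fold change at a mean CPM of 1 or more. Those named outside the rule are marked. 1 gene that the rule names is not reported here. Genes most like a member were taken at a mean log2 CPM of 1 or more. Alternatives were DESeq2 1.42.0, RLE scaling, no filter, a replicate block, limma 3.58.1 on log2(FPKM + 1) and leaving out each library.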

Additional observations from a re-analysis of the deposited data

Results flagged for a closer look

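Areg differed in opposite directions between the diets. All 3 high-fat CIA libraries were above both high-fat sham libraries, and all 3 regular-diet CIA libraries were below all 3 regular-diet sham libraries. Such groups did not overlap for 55.2% and 25.2% of all genes tested. Areg likewise stood higher on the high-fat diet in CIA mice and lower in sham mice, where 22.2% and 41.8% of all genes did not overlap. The CIA minus sham difference in mean CPM was 0.616 CPM greater on the high-fat than on the regular diet. The difference was not tested, because Areg did not pass the filter on low counts. It rests on 0 to 8 counts per library, and 1 regular-diet sham library had the same 2 counts as the higher regular-diet CIA libraries.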

How the results depend on the processing

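Of 672 member values under the alternatives, 657 moved by less than the SD of single libraries within groups (log2 CPM) and 15 by more. That is a wide bound for a difference of means. Of the 16 alternatives 11 leave out 1 library, often from a group outside the comparison, which can hardly move the value. The count is thus no measure of stability. No called member changed sign, but the calls were not all kept. For CIA over sham on the high-fat diet, the log2 fold change over the 16 alternatives was 1.425 to 3.008 for Ereg and 0.6887 to 5.373 for Nrg1. For diet in CIA mice Ereg had 1.408 to 3.045, and for the mean CIA effect Nrg1 had 0.5246 to 4.257. The lowest of each was from limma on log2(FPKM + 1). DESeq2 called 837, 3327, 121, 2006 and 21 genes for CIA over sham on the regular and on the high-fat diet, high-fat over regular diet in sham and in CIA, and the interaction. Among the 79 pathway genes it called 6 and 31 for CIA over sham on the regular and on the high-fat diet, and 16 for diet in CIA mice. Same-letter libraries correlated at -0.426 to 0.463 in their deviations from group means, and libraries of different letters at -0.548 to 0.585. Within groups of 2 or 3 libraries such deviations depend on each other, so these values cannot decide whether the letters pair libraries. With the replicate block, 776 genes and 6 pathway genes passed for CIA over sham on the high-fat diet, and 0 and 0 for diet in CIA mice. With no filter on low counts 3 pathway genes passed for diet in CIA mice. Leaving out each library gave 0 to 16 and 0 to 3738 genes for CIA over sham on the regular and on the high-fat diet, 0 to 6 and 0 to 3224 for diet in sham and in CIA, and 2 to 4347 for the mean CIA effect. Pathway genes numbered 0 to 31 on the high-fat diet, 0 to 29 for diet in CIA mice and 0 to 31 for the mean effect. The cause was not tested. Areg had 0 to 8 counts per library. On log2(FPKM + 1) low genes shrink, so that Nrg1 had 0.69 for CIA over sham on the high-fat diet.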
